A study of Mus musculus with 10 samples.

Results

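The genes described are the mitochondrial carriers of the Slc25 family on the array, chosen as every gene whose only platform symbol starts with Slc25a. There were 46 such genes, measured by 50 probe sets, among 19938 genes with 1 symbol. Of these, 3 had several probe sets (Slc25a5, Slc25a36 and Slc25a40), and the brightest on average was used. RNA came from B220+ cells sorted from pre-B colonies, which are clusters of B cell precursors grown from mouse bone marrow in methylcellulose (M3630 medium), after 7 days. Bone marrow of 5 Hspa9+/+ mice, wild type littermates, and 5 Hspa9+/- mice, here called heterozygous, was cultured separately, and each mouse gave 1 array (Mouse Gene 1.0 ST). Hspa9 encodes mortalin, an Hsp70 chaperone of the mitochondrial matrix. How the Hspa9 allele was disrupted and the strain, age and sex of the mice are not given in the sources used here. B220 is also carried by plasmacytoid dendritic cells, so the sort marks B lineage cells but not only these.

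Slc25 carriers are small membrane proteins, most of them in the mitochondrial inner membrane, which most metabolites cross only through transport proteins. They exchange ADP for ATP, import phosphate, and move carboxylates, amino acids, cofactors, nucleotides and iron between matrix and cytosol. They are encoded in the nucleus, made in the cytosol and inserted through the TOM complex and the TIM22 complex. The matrix import motor in which mortalin works serves the TIM23 route, so carriers are largely not its substrates. In dividing B cell precursors the carriers feed oxidative phosphorylation, lipid synthesis from citrate, the malate-aspartate shuttle and heme and folate metabolism.

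Promoter sequence is shown for 3 carriers on which the results below turn: Slc25a1, with the largest higher value in heterozygous arrays, Slc25a48, the only carrier whose genotypes did not overlap, and Slc25a18, with the largest lower value and a steep relation to macrophage markers. Each is the 250 bases before the RefSeq start of the gene (build GRCm38.p6), 5′ to 3′ on the strand of the gene, at chr16:17928220-17928469 (minus strand) for Slc25a1, chr13:56438105-56438354 (plus strand) for Slc25a48 and chr6:120773518-120773767 (plus strand) for Slc25a18. Capitals mark matches, on either strand, to the motifs named after the sequences.
Slc25a1: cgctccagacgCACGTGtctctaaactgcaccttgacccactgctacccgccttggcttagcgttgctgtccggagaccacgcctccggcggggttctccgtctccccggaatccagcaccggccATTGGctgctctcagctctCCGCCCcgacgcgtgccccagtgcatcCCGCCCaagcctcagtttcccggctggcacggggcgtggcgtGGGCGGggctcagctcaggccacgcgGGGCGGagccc
Slc25a48: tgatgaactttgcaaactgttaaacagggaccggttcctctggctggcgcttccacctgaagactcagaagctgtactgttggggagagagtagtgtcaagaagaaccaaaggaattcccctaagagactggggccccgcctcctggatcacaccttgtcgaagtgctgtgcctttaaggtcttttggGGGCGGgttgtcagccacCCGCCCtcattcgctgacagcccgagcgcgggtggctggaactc
Slc25a18: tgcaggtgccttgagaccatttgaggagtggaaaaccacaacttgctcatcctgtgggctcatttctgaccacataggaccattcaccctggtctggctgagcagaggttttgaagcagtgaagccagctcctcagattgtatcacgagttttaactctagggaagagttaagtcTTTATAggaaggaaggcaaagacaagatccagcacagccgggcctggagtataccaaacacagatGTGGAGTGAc
The Slc25a1 stretch holds 4 GC boxes (GGGCGG), 1 CCAAT box (CCAAT) and 1 E-box (CACGTG) and is 70.0% G and C. In Slc25a48 there are 2 GC boxes in 56.4% G and C. Slc25a18, at 48.8% G and C, has 1 TATA box (TATAAA) and 1 match to a sterol element (TCACNCCAC) and no GC box. Over the whole 300-base windows, from 250 bases before to 50 after the start, a GC box was present in 29 of the 33 tested carriers with a window (87.9%), against 59.1% of 11815 tested genes. A CCAAT box was present in 16 (48.5%, against 37.6%), an E-box in 5 (15.2%, against 9.56%) and the ETS and GABP motif CCGGAAG in 6 (18.2%, against 15.6%). The NRF1 motif was found in Slc25a3 alone (3.03%, against 9.04%), the TATA box and the sterol element in Slc25a18 alone (3.03% each, against 8.27% and 1.19%), and the motifs of ERR (TCAAGGTCA) and PU.1 (GAGGAAGT) in 0 carriers (against 0.296% and 2.86%). Some motifs can overlap others, such as the GC box with the NRF1 motif, and a match describes the letters only.

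Values are RMA expression on the log2 scale as the authors deposited them, differences are heterozygous minus wild type, and n = 5 arrays per genotype unless arrays are said to be left out. Genes with a mean above the 25th percentile (4.52) were tested with limma, which left 14953 genes, and adjusted p-values are over all of them with a threshold of 0.05. Hspa9 was at -0.73 (SE 0.185, adjusted p = 0.345), with an exact two-sided permutation p of 0.0159 for this gene alone, and heterozygous 1 lay above wild type 1, so the genotypes overlapped in the targeted transcript; with macrophage markers as covariate the difference was -0.57. Of the B lineage markers, 10 of 11 were matched and all 10 passed the filter, with a list mean of 10.9 to 11.1 in wild type and 10.8 to 11.1 in heterozygous arrays. Single genes of this list differed by -0.68 to 0.51, with 4 above 0 and 6 below. At an unadjusted p under 0.05, 2 were higher and 0 lower. Monocyte and macrophage markers were also present (16 of 16 above the filter, 15 with a higher mean in heterozygous arrays, 0 past the test): their list mean was 8.96 in wild type 1, 7.53 in wild type 2 and 5.59 to 5.77 in wild type 3 to 5, and 9.46 in heterozygous 2 and 6.91 to 7.17 in the other heterozygous arrays. The list means ran from 4.97 to 6.84 in wild type and 5.52 to 7.45 in heterozygous arrays for neutrophil genes (14 of 14 above the filter and all with a higher heterozygous mean), from 5.71 to 7.09 and 6.79 to 8.33 for plasmacytoid dendritic cell genes (4 of 5 matched, all 4 higher at an unadjusted p under 0.05), and from 5.07 to 7.27 and 5.34 to 7.40 for megakaryocyte genes (5 of 7 matched). Erythroid genes (6 of 10 matched) ran from 4.55 to 4.87 and 4.64 to 4.97, T cell and NK cell genes (8 of 9) from 4.59 to 4.89 and 4.96 to 5.24 with 4 under the filter and the other 4 higher at an unadjusted p under 0.05, and mast cell and basophil genes (6 of 6) from 4.01 to 4.25 in both genotypes with 4 under the filter. Of all genes tested, 6.79% were higher at an unadjusted p under 0.05. The part of these other cell types in the carrier differences below was tested only through the macrophage list, as a covariate. For the other lists it was not tested. In such bulk samples fewer cells of a type and less RNA per cell cannot be told apart.

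No carrier passed the test of a difference between the genotypes. Of the 46 carriers 43 passed the filter, and 0 of these 43 passed the limma threshold, as did 0 of all genes (0% called). At an unadjusted p under 0.05 there were 2 carriers higher in heterozygous arrays, Slc25a1 and Slc25a48 (4.65%, against 6.79% of all genes), and 0 lower (0%, against 4.25%). The genotypes did not overlap in 1 carrier, Slc25a48, higher in heterozygous arrays (2.33%, against 1.47%), and in 0 carriers lower (against 0.809%); in either direction it was 2.28% of all genes. The median difference over the 43 carriers was 0.042, with 27 above 0 and 16 below, and over all genes it was 0.058, with 61.3% above 0. These shares lie near or below those of all genes. Of the 27 carriers above 0, Slc25a34 and Slc25a41 passed the filter only through their heterozygous arrays. Among genes with a mean above the median row (5.69), the median difference was 0.034 for the 33 carriers and 0.0175 for all genes. The count of 2 higher carriers became 4 without wild type 1, wild type 2 or heterozygous 2 and 1 without wild type 3 or heterozygous 5, and the count of 0 lower became 2 without wild type 1, wild type 2 or heterozygous 1 and 1 without heterozygous 4. With array weights it was 7 higher and 4 lower. The share of all genes at such a p is not given for these settings, so the counts cannot be read as particular to carriers. Of all genes, 137 passed the adjusted threshold with array weights and 22 without wild type 1. Without heterozygous 2 or heterozygous 4 there were 2 higher carriers without overlap. With fewer arrays a lack of overlap is likelier for any gene, and the share of all genes in these settings is not given here.

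The intervals give the size of difference that the arrays can resolve. The limma SE of the carriers had a median of 0.137 (0.0866 to 0.339), close to 0.142 for all genes. For 31 of the 43 carriers the 95% interval, not adjusted for the number of genes, lay within a 1.5-fold change in either direction (0.585 on the log2 scale), and for 41 within a 2-fold change. The 2 exceptions at 2-fold were Slc25a18 (-1.24 to 0.16) and Slc25a24 (-0.41 to 1.08), which also had the widest spread over the 10 arrays, 2.00 and 1.86 on the log2 scale, where the median carrier spanned 0.709. Slc25a3 spanned least, 0.294. The filter left out Slc25a21, an oxodicarboxylate carrier (mean 3.76), Slc25a31, the ADP/ATP carrier of germ cells (3.33), and Slc25a54 (3.34), which were below the cutoff on all 10 arrays. A further 6 tested carriers had a mean within 0.5 of the cutoff.

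**Figure D1:**
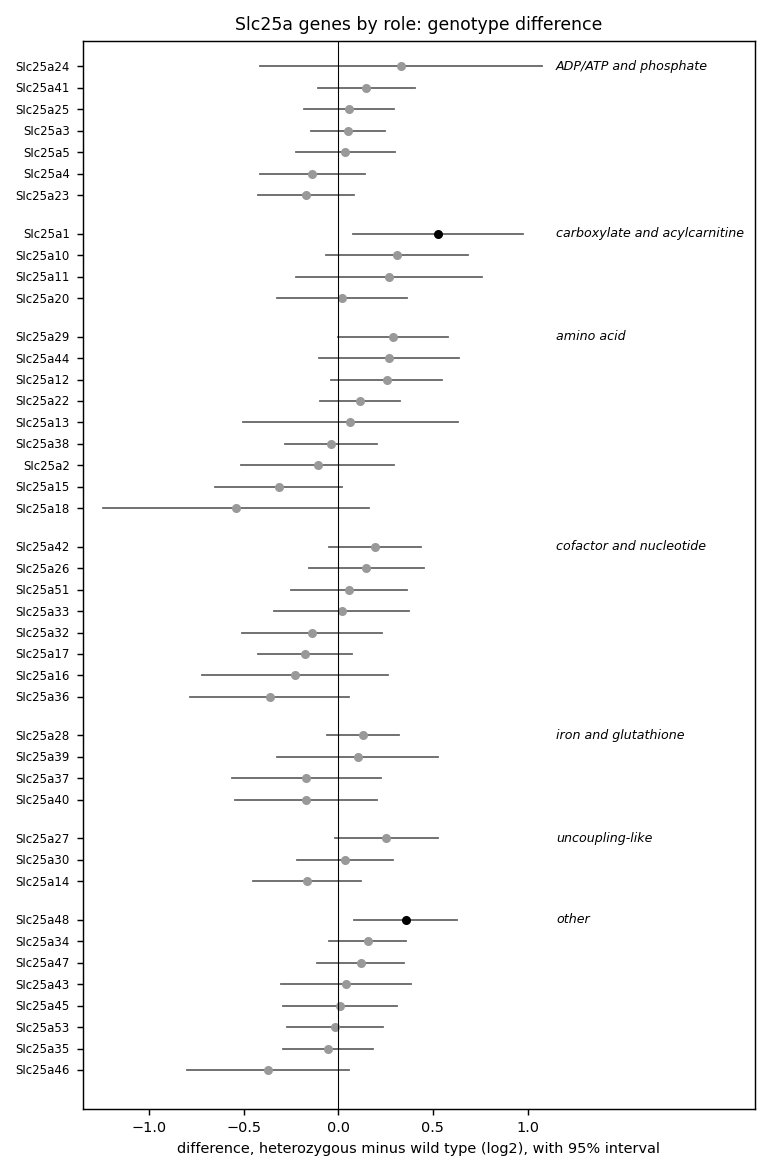
Difference between the genotypes (heterozygous minus wild type, log2) for the 43 tested carriers by role, with 95% limma intervals over 5 arrays per genotype. Black points mark intervals that leave out 0, which are Slc25a1 and Slc25a48; neither passed adjustment over all genes.

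The carriers of adenine nucleotides and phosphate, which supply ATP synthase and export its product, did not differ between the genotypes beyond the spread of the arrays. None of the 7 tested reached an unadjusted p under 0.05, 5 were above 0 and 2 below, and their median difference was 0.052. Slc25a5, the ADP/ATP carrier ANT2 of dividing cells, read 11.06, 11.38, 11.46, 11.42 and 11.71 in wild type arrays 1 to 5 and 11.60, 11.35, 11.43, 11.46 and 11.38 in heterozygous arrays 1 to 5. The heterozygous arrays lay inside the range of the wild type arrays, from which wild type 1 was lowest and wild type 5 highest, and the difference was 0.04 (SE 0.119, adjusted p = 0.904), with an interval of -0.23 to 0.30. Its direction turned with quantile normalization (-0.021), cyclic loess (-0.0088) and array weights (-0.0098). Another 2 probe sets carry the same accessions and gave 0.066 and 0.029, and since a pseudogene, Slc25a5-ps, stands in the RefSeq gene table, the probe sets may not measure this gene alone.

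Slc25a4, the ADP/ATP carrier ANT1 that is best known from heart and muscle, read 9.63, 9.86, 9.97, 10.14 and 10.31 in wild type arrays 1 to 5 and 9.96, 9.81, 9.90, 9.84 and 9.73 in heterozygous arrays 1 to 5. Again the heterozygous arrays fell within the wild type range, and the difference was -0.14 (SE 0.126, adjusted p = 0.649). Slc25a3, the phosphate carrier, read 9.68, 9.81, 9.83, 9.88 and 9.81 in wild type arrays 1 to 5 and 9.83, 9.73, 9.76, 9.98 and 9.98 in heterozygous arrays 1 to 5. These arrays agree closely, and the difference was 0.05 (SE 0.0879, adjusted p = 0.804) with an interval of -0.14 to 0.25. The ATP-Mg/phosphate carriers, which adjust the adenine nucleotide pool of the matrix, were at -0.17 for Slc25a23, 0.33 for Slc25a24 (-0.054 with macrophage markers as covariate, 0.084 without heterozygous 2 and 0.59 without wild type 1), 0.06 for Slc25a25 (-0.0047 with the covariate) and 0.15 for Slc25a41, whose mean of 4.58 was close to the cutoff. Slc25a23, among the 6 lower carriers of smallest p, read 5.69, 5.40, 5.72, 5.90 and 5.89 in wild type arrays 1 to 5 and 5.56, 5.36, 5.52, 5.70 and 5.60 in heterozygous arrays 1 to 5. Its ranges overlapped, with wild type 2 close to the lowest heterozygous array, and the difference had an SE of 0.115 and an adjusted p = 0.558.

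Among the carriers of carboxylates and acylcarnitine all 4 tested were above 0, with a median difference of 0.291, and 1 had an unadjusted p under 0.05. That gene was Slc25a1, the citrate carrier, which exports citrate for fatty acid and sterol synthesis in the cytosol. It read 9.92, 10.07, 9.47, 9.19 and 9.51 in wild type arrays 1 to 5 and 9.90, 9.91, 9.92, 10.46 and 10.63 in heterozygous arrays 1 to 5. Heterozygous 4 and 5 were the highest of all arrays and wild type 3 to 5 the lowest, while wild type 1 was level with heterozygous 1 to 3 and wild type 2 lay above them. The means were 9.63 ± 0.356 in wild type and 10.16 ± 0.353 in heterozygous arrays (SD), a difference of 0.53 (SE 0.204, adjusted p = 0.406), or 1.44-fold with an interval of 1.06 to 1.97. In all 20 alternative settings the difference stayed above 0 (0.41 to 0.66). Its unadjusted p was above 0.05 with the replicate number as a block (0.0608), and without wild type 3 (0.0539), wild type 4 (0.0641), wild type 5 (0.0526), heterozygous 4 (0.0626) or heterozygous 5 (0.0640). With the macrophage list mean as covariate it was 0.46, and without wild type 1 and heterozygous 2 it was 0.66.

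Slc25a10, the dicarboxylate carrier that exchanges malate and succinate for phosphate, read 7.38, 7.48, 6.98, 6.72 and 7.18 in wild type arrays 1 to 5 and 7.22, 7.45, 7.22, 7.57 and 7.86 in heterozygous arrays 1 to 5. Heterozygous 4 and 5 were again the highest and wild type 4 the lowest, with the remaining arrays mixed, and the difference was 0.31 (SE 0.170, adjusted p = 0.502). Slc25a11, which exchanges 2-oxoglutarate for malate in the malate-aspartate shuttle, read 9.11, 9.08, 8.22, 8.01 and 8.41 in wild type arrays 1 to 5 and 8.51, 9.08, 8.71, 9.03 and 8.85 in heterozygous arrays 1 to 5. In wild type arrays it fell into a high pair (wild type 1 and 2) and a low group (wild type 3 to 5), with the heterozygous arrays between or at the high end, and the difference was 0.27 (SE 0.223, adjusted p = 0.611), or 0.068 with macrophage markers as covariate. Slc25a20, the carnitine/acylcarnitine carrier of fatty acid oxidation, read 6.74, 7.14, 6.42, 6.37 and 6.89 in wild type arrays 1 to 5 and 6.72, 6.98, 6.52, 6.77 and 6.67 in heterozygous arrays 1 to 5. Its difference of 0.02 (SE 0.156, adjusted p = 0.960) turned to -0.070 with that covariate and to -0.036 without wild type 1 and heterozygous 2.

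**Figure D2:**
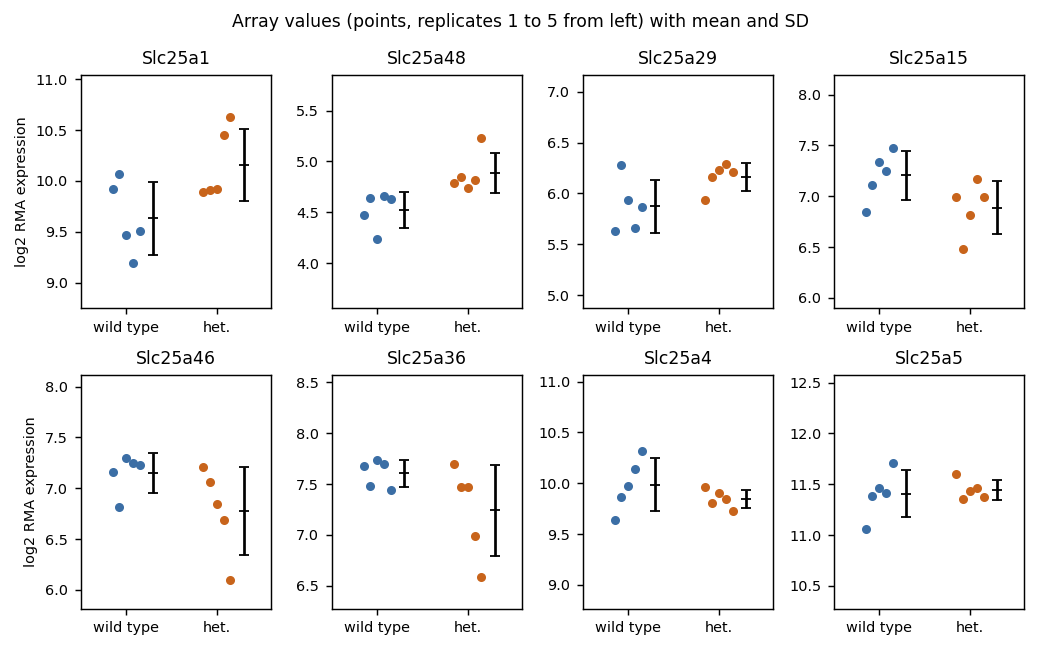
Log2 expression of 8 carriers on each array, with replicates 1 to 5 from left to right and the mean with SD beside them (n = 5 per genotype); every panel has the same height in log2 units. Slc25a48 shows no overlap between the genotypes, whereas the low heterozygous means of Slc25a46 and Slc25a36 rest on heterozygous 4 and 5.

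Amino acid carriers went in both directions. Of 9 tested, 5 were above 0 and 4 below, the median difference was 0.065 and 0 had an unadjusted p under 0.05. Slc25a12 (aralar), which exports aspartate in return for glutamate in the malate-aspartate shuttle, read 8.75, 8.65, 8.39, 8.16 and 8.36 in wild type arrays 1 to 5 and 8.53, 8.93, 8.84, 8.73 and 8.54 in heterozygous arrays 1 to 5. The heterozygous arrays lay above wild type 3 to 5, but wild type 1 and 2 lay above heterozygous 1 and 5. The difference was 0.26 (SE 0.134, adjusted p = 0.494), or 0.14 with macrophage markers as covariate. Slc25a13 (citrin), which does the same exchange, read 5.52, 4.82, 5.06, 4.68 and 4.98 in wild type arrays 1 to 5 and 5.09, 6.04, 4.78, 4.60 and 4.87 in heterozygous arrays 1 to 5. Heterozygous 2 and wild type 1 stood above the remaining arrays, and the difference of 0.06 (SE 0.258, adjusted p = 0.924) turned to -0.17 with the covariate, -0.037 with quantile normalization and -0.031 with cyclic loess.

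Slc25a29, a carrier of basic amino acids, read 5.63, 6.28, 5.94, 5.66 and 5.87 in wild type arrays 1 to 5 and 5.94, 6.16, 6.23, 6.29 and 6.21 in heterozygous arrays 1 to 5. Wild type 2 reached the level of the highest heterozygous arrays, and the difference was 0.29 (SE 0.133, adjusted p = 0.455). Slc25a15, the ornithine carrier that links the urea cycle enzymes of matrix and cytosol, read 6.84, 7.11, 7.34, 7.25 and 7.48 in wild type arrays 1 to 5 and 6.99, 6.49, 6.81, 7.17 and 6.99 in heterozygous arrays 1 to 5. Here heterozygous 2 was lowest and wild type 5 highest with overlap between, and the difference was -0.32 (SE 0.152, adjusted p = 0.472), or -0.17 with macrophage markers as covariate. Slc25a18, one of a pair of glutamate carriers, read 5.66, 6.03, 7.03, 7.37 and 6.62 in wild type arrays 1 to 5 and 6.35, 5.37, 6.38, 5.84 and 6.06 in heterozygous arrays 1 to 5. It was lowest in heterozygous 2 and wild type 1 and highest in wild type 3 and 4, so the difference of -0.54 (SE 0.319, adjusted p = 0.524) stood beside an SD of 0.702 within wild type, and with the covariate it was -0.21. Slc25a22, the related glutamate carrier, was at 0.12, Slc25a44, a carrier of branched-chain amino acids, at 0.27 (0.13 with the covariate), and Slc25a2, an ornithine carrier, at -0.11 (0.028 with the covariate). Slc25a38, which brings glycine into the matrix for the first step of heme synthesis, read 6.20, 6.53, 6.08, 6.08 and 6.47 in wild type arrays 1 to 5 and 6.13, 6.22, 6.22, 6.31 and 6.28 in heterozygous arrays 1 to 5. All heterozygous arrays lay inside the wild type range and the difference was -0.04 (SE 0.111, adjusted p = 0.885).

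Carriers of cofactors and nucleotides were evenly divided, 4 above and 4 below 0 of 8 tested, with a median difference of -0.060 and 0 at an unadjusted p under 0.05. Slc25a36, a pyrimidine nucleotide carrier, read 7.68, 7.48, 7.73, 7.70 and 7.44 in wild type arrays 1 to 5 and 7.70, 7.47, 7.47, 6.99 and 6.59 in heterozygous arrays 1 to 5. Heterozygous 4 and 5 were below all wild type arrays and heterozygous 1 to 3 were within them, and the difference was -0.36 (SE 0.192, adjusted p = 0.494), or -0.20 without heterozygous 5. Its second probe set, which lists partly other accessions, gave 0.045 (SE 0.208), so the direction is not shared by the probe sets of this gene, and as probe locations were not used here, either may also measure a near-identical copy. Slc25a17, a peroxisomal member that carries coenzyme A, FAD and NAD, read 8.54, 8.89, 8.41, 8.43 and 8.36 in wild type arrays 1 to 5 and 8.23, 8.43, 8.34, 8.43 and 8.32 in heterozygous arrays 1 to 5. The ranges overlapped below wild type 1 and 2, and the difference was -0.17 (SE 0.113, adjusted p = 0.542).

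Slc25a51, which imports NAD into the matrix, read 9.20, 8.88, 9.10, 9.05 and 9.12 in wild type arrays 1 to 5 and 9.26, 8.78, 9.42, 9.32 and 8.85 in heterozygous arrays 1 to 5. Heterozygous arrays spread on both sides of the wild type arrays, with a difference of 0.06 (SE 0.139, adjusted p = 0.864). The remaining cofactor carriers were Slc25a42, the coenzyme A carrier, at 0.19, Slc25a26, the S-adenosylmethionine carrier, at 0.15 (0.041 without heterozygous 5), Slc25a33, a second pyrimidine nucleotide carrier, at 0.02 (-0.067 with quantile normalization and -0.057 with cyclic loess), Slc25a32, the folate and FAD carrier, at -0.14, and Slc25a16, tied to coenzyme A, at -0.23 (-0.032 without heterozygous 5).

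Of the iron and glutathione carriers, 2 were above and 2 below 0 of 4 tested, with a median difference of -0.034 and 0 at an unadjusted p under 0.05. Slc25a37 (mitoferrin 1), which imports iron for heme and iron-sulfur clusters and is best known from red cell precursors, read 7.02, 7.14, 7.51, 7.48 and 7.25 in wild type arrays 1 to 5 and 7.37, 6.56, 7.39, 7.36 and 6.88 in heterozygous arrays 1 to 5. Heterozygous 2 and 5 were below all wild type arrays and the other heterozygous arrays within their range, with a difference of -0.17 (SE 0.179, adjusted p = 0.686), or -0.019 with macrophage markers as covariate. Slc25a28 (mitoferrin 2), its widely expressed relative, was at 0.13 (SE 0.0866, adjusted p = 0.548). Its wild type arrays lay closely together, from 7.36 to 7.40. Heterozygous 2 was below them at 7.27, and the other heterozygous arrays were above them, from 7.53 to 7.59. Slc25a39, which imports glutathione, read 9.0, 8.51, 8.16, 8.0 and 8.54 in wild type arrays 1 to 5 and 8.33, 8.60, 8.19, 8.74 and 8.85 in heterozygous arrays 1 to 5. Wild type 1 was highest and wild type 4 lowest, so the wild type range enclosed all heterozygous arrays, and the difference of 0.10 (SE 0.194, adjusted p = 0.825) was -0.023 with the covariate. Its relative Slc25a40 was at -0.17, with -0.27 (SE 0.166) from a second probe set, and whether both measure this gene alone is likewise uncertain.

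Among the uncoupling-like and less well described carriers, Slc25a48 was the only one whose genotypes did not overlap. It read 4.47, 4.64, 4.23, 4.66 and 4.63 in wild type arrays 1 to 5 and 4.79, 4.85, 4.74, 4.81 and 5.23 in heterozygous arrays 1 to 5. Slc25a48 is linked to choline import into mitochondria. Every heterozygous array lay above every wild type array, closest between wild type 4 and heterozygous 3, and the means were 4.53 ± 0.178 in wild type and 4.88 ± 0.197 in heterozygous arrays (SD). The difference was 0.36 (SE 0.124, adjusted p = 0.372), or 1.28-fold with an interval of 1.06 to 1.55, and it was above 0 with an unadjusted p under 0.05 in all 19 alternatives that kept the gene (0.25 to 0.39). The wild type mean was close to the cutoff of 4.52, and with quantile normalization or cyclic loess the genotypes overlapped. Slc25a27 (uncoupling protein 4), also dim, read 4.55, 4.81, 4.71, 4.96 and 4.61 in wild type arrays 1 to 5 and 5.18, 5.00, 4.81, 4.74 and 5.19 in heterozygous arrays 1 to 5. Its ranges overlapped through wild type 2 and 4 and heterozygous 3 and 4, and the difference was 0.25 (SE 0.123, adjusted p = 0.472). Slc25a14 (uncoupling protein 5) was at -0.17 and Slc25a30, the kidney mitochondrial carrier, at 0.03.

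Slc25a46, a member of the outer membrane that takes part in mitochondrial fission and fusion, read 7.16, 6.82, 7.30, 7.25 and 7.23 in wild type arrays 1 to 5 and 7.21, 7.06, 6.85, 6.69 and 6.09 in heterozygous arrays 1 to 5. Heterozygous 5 was lowest and heterozygous 1 was level with wild type 3 to 5, giving a difference of -0.37 (SE 0.194, adjusted p = 0.494), or -0.20 without heterozygous 5. The members with no role given here were Slc25a34 at 0.16, Slc25a35 at -0.05, Slc25a43 at 0.04 (-0.044 with quantile normalization and -0.030 with cyclic loess), Slc25a45 at 0.01, Slc25a47 at 0.12 and Slc25a53 at -0.02. Direct neighbours in the RefSeq gene table, with no other protein-coding gene between them, were 4 pairs of carriers. Their differences were 0.29 and 0.12 for Slc25a29 and Slc25a47, 0.15 and -0.17 for Slc25a41 and Slc25a23, and 0.04 and 0.04 for Slc25a43 and Slc25a5, and in the remaining pair Slc25a54 was under the filter beside Slc25a24.

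**Figure D3:**
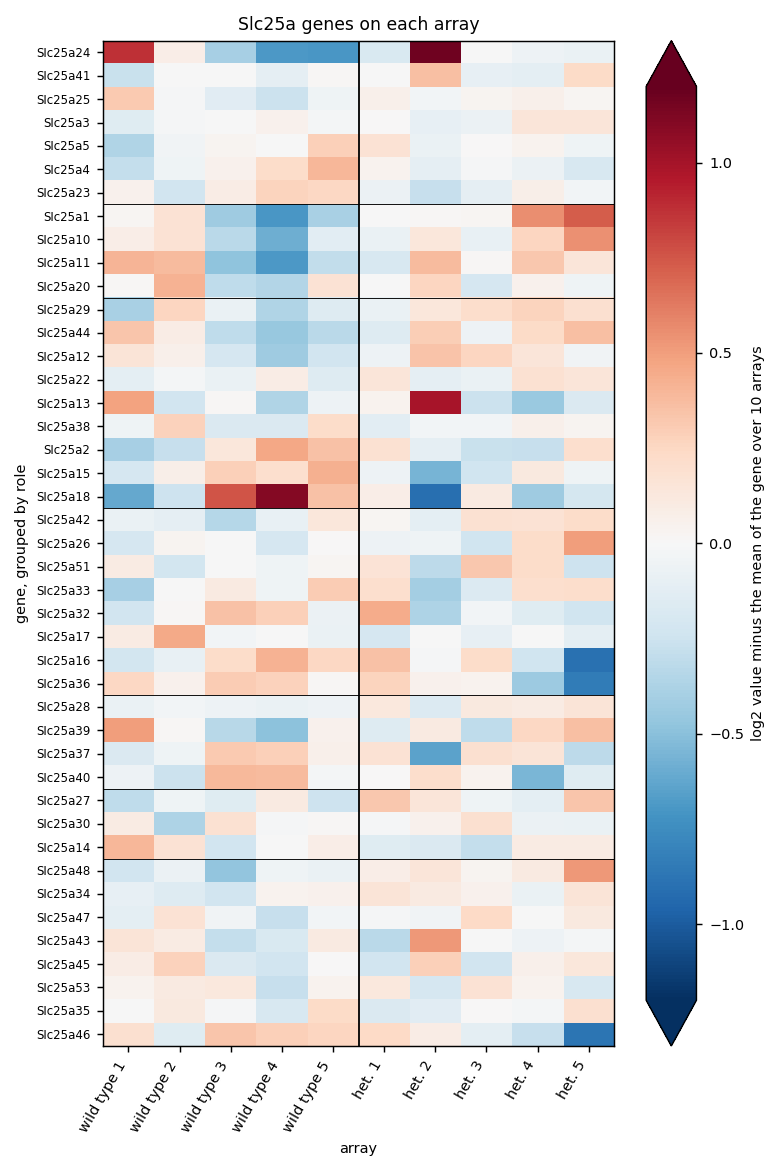
Each of the 43 tested carriers on the 10 arrays, as log2 value minus the mean of the gene over all arrays, with carriers grouped by role and a line between the genotypes. Slc25a24 and Slc25a13 are high and Slc25a18 is low in wild type 1 and heterozygous 2, while Slc25a16, Slc25a36 and Slc25a46 are lowest in heterozygous 5.

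Single arrays held the extremes of many carriers, in shares above and below those of all genes. Wild type 4 held the highest or lowest value of 17 of the 43 carriers (39.5%, against 28.0% of all genes), 13 of them lowest. Heterozygous 2 held an extreme of 14 carriers (32.6%, against 25.7%), heterozygous 5 of 13 (30.2%, against 39.7%) and wild type 1 of 11 (25.6%, against 24.5%). Wild type 1 and heterozygous 2 were also the arrays highest in macrophage markers.

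The relation of each carrier to those markers was therefore fitted as a slope on the macrophage list mean with genotype in the same limma fit, a measure chosen after the data had been seen. Carriers with a slope past the adjusted threshold numbered 9 of 43: 5 rose with the markers (11.6%, against 10.3% of all genes) and 4 fell (9.30%, against 7.74%). Slc25a24, an ATP-Mg/phosphate carrier, had the steepest rise. It read 5.65, 4.85, 4.37, 4.08 and 4.08 in wild type arrays 1 to 5 and 4.59, 5.94, 4.77, 4.71 and 4.69 in heterozygous arrays 1 to 5, highest in heterozygous 2 and wild type 1 and lowest in wild type 4 and 5. This carrier is dim: its mean of 4.77 was close to the cutoff of 4.52, and wild type 3 to 5 lay below the cutoff. The high values of heterozygous 2 and wild type 1, which also shape the slope, raised that mean above the cutoff. Without them the mean lies just below it, so this slope is not independent of the filter. The slope was 0.46 log2 units per log2 unit of the marker mean (SE 0.0427, adjusted p = 1.57e-05), and with genotype and markers in the fit the genotype difference was -0.054.

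Slc25a18 had the steepest fall, a slope of -0.39 (SE 0.0691, adjusted p = 0.00201). Both slopes passed in each of the 10 fits without 1 array. The other rising carriers were Slc25a13 (0.28, adjusted p = 0.0220), Slc25a11 (0.24, adjusted p = 0.0192), Slc25a44 (0.17, adjusted p = 0.0442) and Slc25a12 (0.13, adjusted p = 0.0480). The other falling ones were Slc25a15 (-0.17, adjusted p = 0.0125), Slc25a33 (-0.17, adjusted p = 0.0350) and Slc25a37 (-0.18, adjusted p = 0.0404). These counts moved with single arrays. The rising ones numbered 1 without wild type 1, 2 without wild type 4 and 3 without wild type 2, wild type 3, heterozygous 1 or heterozygous 2, and the falling ones 1 without wild type 1 or heterozygous 2 and 2 without wild type 3, heterozygous 1 or heterozygous 4.

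Without both wild type 1 and heterozygous 2, 0 carriers passed (against 1.30% of all genes rising and 0.254% falling). The slopes were then 0.36 for Slc25a24 (SE 0.0968, adjusted p = 0.124), -0.51 for Slc25a18 (SE 0.165, adjusted p = 0.184) and 0.45 for Slc25a11 (SE 0.132, adjusted p = 0.158), each with an unadjusted p under 0.05. Slc25a24 stayed in this fit only because the filter used the mean over all arrays. Slc25a13 was at -0.0094, so its rise rested on wild type 1 and heterozygous 2. Of the wild type arrays left, wild type 2 had a marker mean of 7.53 and the others 5.59 to 5.77. The heterozygous arrays left ranged from 6.91 to 7.17. With genotype in the fit, the slopes without wild type 1 and heterozygous 2 therefore rest largely on wild type 2. Neutrophil and megakaryocyte list means were high on wild type 1 and heterozygous 2, and their part in the slopes was not tested.

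**Figure D4:**
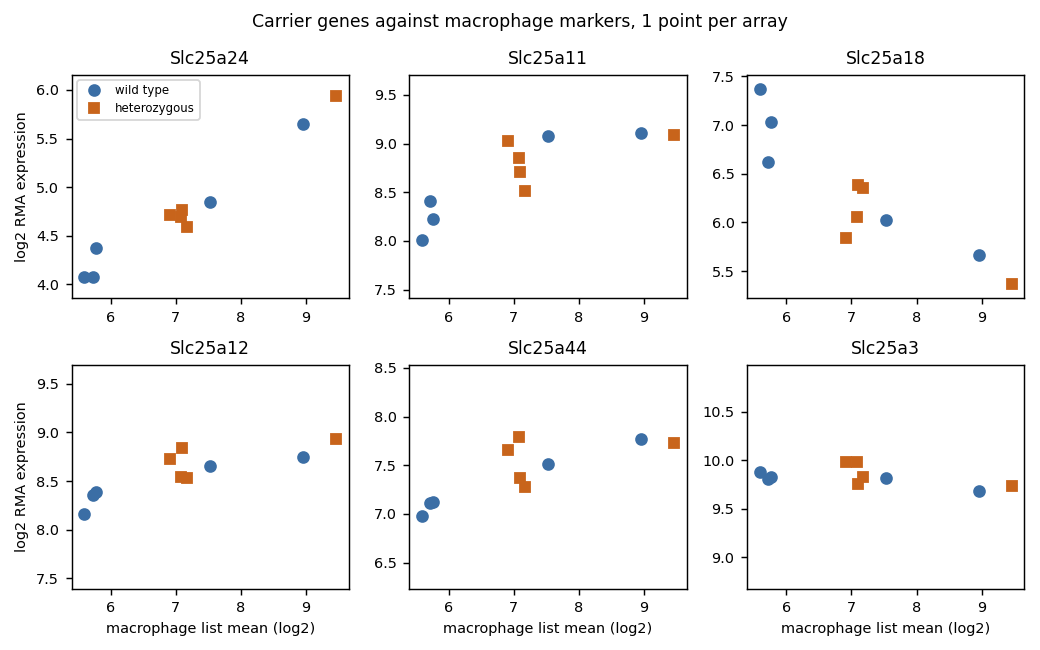
Log2 expression of 6 carriers against the mean of 16 macrophage markers, 1 point per array; every panel has the same height in log2 units. Slc25a24 rises and Slc25a18 falls over all arrays. Within the heterozygous arrays any trend rests on heterozygous 2, at a marker mean of 9.46. The other heterozygous arrays span 6.91 to 7.17. Slc25a3, shown for contrast, stays between 9.68 and 9.98.

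Genes that hand substrates to the carriers or bring them into the membrane were compared in the same fit. Of 108 genes in 14 lists 96 were matched and 93 passed the filter. Of these 0 passed the limma threshold, 3 were higher (3.23%, against 6.79%) and 4 lower (4.30%, against 4.25%) at an unadjusted p under 0.05, and in 2 the heterozygous arrays lay below all wild type arrays (2.15%, against 0.809%). Their median difference was 0.057.

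The enzymes around citrate and acetyl-CoA had a median difference of 0.130, with 3 of 5 above 0. Fasn, the fatty acid synthase that uses carbon exported as citrate, read 8.36, 8.53, 8.78, 8.57 and 8.47 in wild type arrays 1 to 5 and 9.03, 8.38, 9.01, 9.35 and 9.59 in heterozygous arrays 1 to 5. As in Slc25a1, heterozygous 4 and 5 were the highest arrays, and heterozygous 2 lay among the wild type values, with a difference of 0.53 (SE 0.197, adjusted p = 0.392). Acss2, which makes acetyl-CoA from acetate, was at 0.19. The remaining genes of this list were Acaca at 0.13, Cs at -0.02 and Acly at -0.06. The malate-aspartate shuttle enzymes were all 4 above 0, with a median of 0.119, led by the malate dehydrogenase Mdh2 at 0.21 (SE 0.0884, adjusted p = 0.442) and the aspartate aminotransferase Got2 at 0.21. ATP synthase subunits, the partners of the ADP/ATP and phosphate carriers, had 13 of 15 above 0 and a median of 0.147, with the c-ring genes Atp5g1 at 0.27 (SE 0.122, adjusted p = 0.449) and Atp5g2 at 0.20.

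The carnitine shuttle list had a median of 0.108 with 3 of 4 above 0. Cpt1a, which makes the acylcarnitine that Slc25a20 carries, read 7.65, 7.44, 7.59, 7.48 and 7.90 in wild type arrays 1 to 5 and 7.29, 7.31, 7.40, 7.52 and 7.07 in heterozygous arrays 1 to 5. It was lowest in heterozygous 5 and overlapped only where heterozygous 4 exceeded wild type 2 and 4, with a difference of -0.30 (SE 0.116, adjusted p = 0.409), while Cpt1c was at 0.10. Of the other transporters of the inner membrane (13 tested, 7 above 0, median 0.048), Sfxn4, a sideroflexin, was at -0.42 (SE 0.130, adjusted p = 0.349). Micu2, a regulatory subunit of the calcium uniporter, read 6.84, 6.73, 6.98, 6.92 and 6.86 in wild type arrays 1 to 5 and 6.71, 6.63, 6.64, 6.68 and 6.33 in heterozygous arrays 1 to 5. Every heterozygous array was below every wild type array, with a difference of -0.27 (SE 0.0980, adjusted p = 0.391).

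The outer membrane channels had a median of 0.016, with Vdac1 at 0.14 and Vdac3, a voltage-dependent anion channel whose genotypes did not overlap either, at -0.20 (SE 0.0882, adjusted p = 0.449). Vdac3 kept an unadjusted p under 0.05 in 7 of 20 alternatives. The import route of carriers, Tom70 with the TIM22 complex and its small Tim chaperones, had 6 of 9 above 0 and a median of 0.069, with Timm13 at 0.40 and Timm22, the insertion channel, at 0.28. The family members with other names had a median of -0.054 (3 tested, 1 above 0), with Mtch1 at 0.27 and Mtch2, an outer membrane insertase, at -0.12.

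The remaining partner lists showed 0 genes at an unadjusted p under 0.05. Heme synthesis had a median of 0.134 (6 of 8 above 0), with Alad, which joins aminolevulinate into porphobilinogen, at 0.33 and Urod, a later decarboxylase of the path, at 0.24. Mitochondrial folate enzymes had a median of -0.014 (1 of 4 above 0), with Shmt2, the mitochondrial serine hydroxymethyltransferase, at 0.23 and Mthfd1l, which releases formate, at -0.07, which was 0.14 with macrophage markers as covariate. Coenzyme A synthesis had a median of -0.092 (2 of 7 above 0), with the pantothenate kinases Pank2 at -0.14 and Pank1 at -0.25. NAD synthesis had a median of 0.038 (6 of 8 above 0), with Naprt, which starts from nicotinic acid, at 0.19 and Nmnat3, the mitochondrial adenylyltransferase, at 0.16. Glutathione synthesis had a median of -0.210 (1 of 4 above 0), with Gss, glutathione synthetase, at 0.19. Gclc, the catalytic subunit of the first enzyme, was at -0.55 (SE 0.265, adjusted p = 0.472). Its wild type 3 to 5 were at 8.33 to 8.58, while wild type 1 and 2 (7.34 and 7.47) lay within the heterozygous range of 7.12 to 7.77. Ornithine and proline enzymes had a median of 0.0086 (3 of 6 above 0), with Aldh18a1, which starts proline synthesis from glutamate, at 0.30 and Arg1, an arginase, at -0.17.

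**Figure D5:**
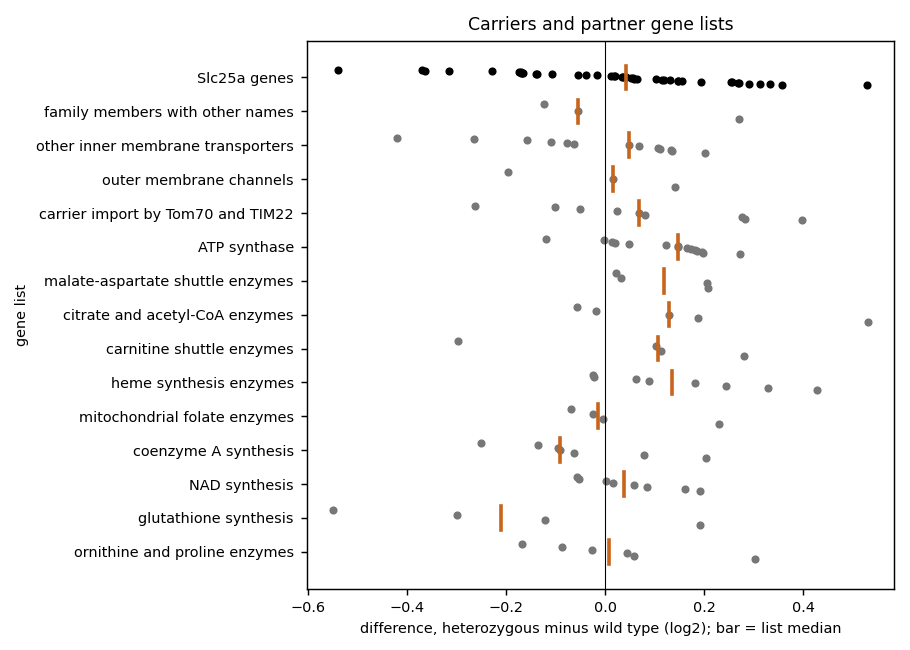
Differences (heterozygous minus wild type, log2) of the tested carriers and of 14 partner lists, 1 point per gene, with a bar at each list median. The medians lie between -0.210 (glutathione synthesis) and 0.147 (ATP synthase), and the carrier median of 0.042 lies close to 0.058, the median of all genes. Among genes with a mean above 5.69 these medians were 0.034 for the carriers and 0.0175 for all genes.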

How the data were processed

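The authors deposited log2 values from RMA at the gene level, made in Affymetrix Expression Console per the labels and the submitters' processing notes; versions, genome build and annotation are not given in the sources used here. Background was corrected, array distributions equalised and probes summarised by RMA, so a shift common to most genes would be largely removed. There were 35556 probe sets on 10 arrays, with medians of 5.38 to 5.49 per array, and precision is limited by the number of arrays.

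In the platform annotation 21789 probe sets had 1 symbol, 1621 several and 12146 were not listed. For each of 19938 symbols the brightest probe set on average was kept, and the dimmest 25% of genes by mean were left out. The genotype difference was fitted in limma (version 3.58.1, R 4.3.3; lmFit, eBayes) with Benjamini-Hochberg adjustment over 14953 genes, after the code was tested on simulated data. Levels of different probe sets were not compared. Promoter windows come from RefSeq GRCm38.p6.

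The members, the 14 partner lists, the 8 marker lists and the tests were chosen with earlier results of these data known. All carriers are named; array values are given for the 6 of smallest p in each direction, any carrier without overlap, and 12 carriers chosen by role, and Slc25a24 was added after its values were seen. In each partner list the 2 genes of smallest p are named, and in the citrate and acetyl-CoA list all matched genes. Alternatives were other filters, every probe set separately, quantile normalization, cyclic loess, trended and robust variance, array weights, a replicate block, macrophage markers as covariate, and arrays left out.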

Additional observations from a re-analysis of the deposited data

Results flagged for a closer look

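In 4 of the 86 groups of 5 arrays (43 carriers in 2 genotypes) a single array stood apart, its gap to the next array exceeding 0.71 of the range of the group (Dixon's critical value for 5 arrays); chance alone gives about 1 in 20. Slc25a24 was at 5.94 in heterozygous 2 and at most 4.77 in the other heterozygous arrays, a gap of 0.867 of the range. Slc25a28 (mitoferrin 2) was lowest in heterozygous 2, at 7.27 against 7.53 for the next array (0.810). Slc25a53 was lowest in wild type 4, at 5.62 against 5.94 (0.794). Slc25a48 was highest in heterozygous 5, at 5.23 against 4.85 (0.778), and its difference without that array was 0.27.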

How the results depend on the processing

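In none of the 20 alternatives did a carrier pass the adjusted threshold. The count of carriers higher at an unadjusted p under 0.05 was 2 and became 1 above the median row, 4 with trended and robust variance, 7 with array weights and 1 with the replicate block, and 1 to 4 without 1 array. The count of lower ones, 0, became 4 with array weights, 2 without wild type 1 and heterozygous 2, and 0 to 2 without 1 array. Carriers without overlap, higher, numbered 0 above the median row (which left Slc25a48 out), 0 with quantile normalization, 0 with cyclic loess, 3 without wild type 1 and heterozygous 2, and 1 to 2 without 1 array. With fewer arrays a lack of overlap is likelier for any gene. The shares of all genes beside these carrier counts are not given for the alternatives, so the changes cannot be read as particular to carriers. Over all genes 137 passed with array weights, 26 without wild type 1 and heterozygous 2, 22 without wild type 1 and 3 without heterozygous 2, the range without 1 array being 0 to 22. Hspa9 was at -0.79 with array weights (adjusted p = 0.0381). Carriers with a slope on the macrophage mean numbered 0 rising and 0 falling without wild type 1 and heterozygous 2, and without 1 array 1 to 5 rising and 1 to 4 falling. The median difference of the carriers ran from -0.0047 with macrophage markers as covariate to 0.065.

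Some directions turned. With quantile normalization these were Slc25a5 (-0.0205), Slc25a43 (-0.0437), Slc25a13 (-0.0374) and Slc25a33 (-0.0667), and with cyclic loess the same 4 (-0.00882, -0.0303, -0.0310 and -0.0574). With array weights they were Slc25a5 (-0.00981), Slc25a53 (0.107), Slc25a33 (-0.0605) and Slc25a45 (-0.0260). With macrophage markers as covariate they were Slc25a24 (-0.0537), Slc25a2 (0.0275), Slc25a39 (-0.0226), Slc25a25 (-0.00467), Slc25a43 (-0.0801), Slc25a13 (-0.165), Slc25a20 (-0.0704), Slc25a45 (-0.0804) and Mthfd1l (0.143). Without wild type 1 and heterozygous 2 they were Slc25a5 (-0.0264), Slc25a43 (-0.0384), Slc25a13 (-0.0472), Slc25a53 (0.0408), Slc25a20 (-0.0357) and Slc25a45 (-0.0349). Without 1 array Slc25a13 ran from -0.175 to 0.193, Slc25a20 from -0.0662 to 0.127, Slc25a30 from -0.0543 to 0.0845, Slc25a33 from -0.0790 to 0.122, Slc25a38 from -0.0866 to 0.0243, Slc25a39 from -0.00715 to 0.241, Slc25a43 from -0.0828 to 0.127, Slc25a45 from -0.0592 to 0.0825, Slc25a5 from -0.0498 to 0.112, Slc25a51 from -0.0157 to 0.145, Slc25a53 from -0.0883 to 0.0315 and Mthfd1l from -0.195 to 0.0657. The cause of these changes was not tested.

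The labels do not say whether equal replicate numbers pair mice. The deviations of wild type and heterozygous 1 correlated at -0.528, the other pairs at 0.043 to 0.534, and 0 of 5 wild type arrays correlated best with their own number. Wild type 1 correlated best with heterozygous 2, and both were highest in macrophage markers. These correlations cannot exclude that mice were paired, as the deviations also hold other differences between arrays. The replicate block left 0 carriers past the adjusted threshold and Slc25a1 at 0.53 (adjusted p = 0.559).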
